A study of Nicotiana tabacum with 6 samples.

Results

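Nitrate-response regulators of tobacco (Nicotiana tabacum) were picked by the gene symbol that the authors deposited beside each count. All rows whose first name was NLP1 to NLP9, LBD37, LBD38 or LBD39 were taken, which gave 35 of the 69500 genes in the table. Of these, 23 were named NLP5, 3 NLP6, 1 NLP9, 2 NLP2, 5 NLP3 and 1 LBD39, and 0 were named LBD37 or LBD38. The low nitrogen group was 3 libraries of seedlings fed a Hoagland-type solution with 0.75 mM ammonium nitrate for 15 days. The control group was 3 libraries of seedlings on the same solution with 7.5 mM ammonium nitrate, and in both groups the solution was renewed every 7 days. The labels give no cultivar, seedling age or organ, and leave unsaid if each library is its own set of plants, so that the p-values below measure the spread between these 6 libraries, which may be technical in part.

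NIN-like proteins (NLP) are plant transcription factors with an RWP-RK DNA-binding domain. In Arabidopsis, the best studied species, nitrate triggers calcium-dependent kinases that phosphorylate NLP proteins, which then stay in the nucleus and switch on genes of nitrate uptake and reduction. Much of this control acts on the protein, so that the messenger RNA level is only part of NLP activity. LBD37, LBD38 and LBD39 are LOB domain repressors of Arabidopsis that are induced by nitrogen and lower the expression of nitrate uptake and anthocyanin genes.

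The shared symbol joined a pair of unrelated protein families. The Arabidopsis locus codes deposited with NLP5, NLP6 and NLP9 were At1g76350, At1g64530 and At3g59580, which are NIN-like proteins. The codes deposited with NLP2 and NLP3 were At4g08790 and At5g12040. These are nitrilase-like proteins, enzymes that remove amide groups from small molecules, and they share only the abbreviation. The 7 genes with these codes were therefore not nitrate regulators by their own annotation. This left 27 NIN-like genes, 7 nitrilase-like genes and 1 LOB domain gene. The symbols name the nearest annotated protein, so 23 tobacco genes called NLP5 need not all correspond to Arabidopsis NLP5. No sequences were available here, so how similar the copies are was not tested, and reads of near-identical copies may have been split between them.

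The libraries held 13027374 to 15620067 counts. Levels are CPM, counts scaled to a common library size with TMM factors, which corrects for library composition. They are not divided by gene length, so levels are compared between libraries and not between genes. Low nitrogen replicate 1 and control replicate 3 carried the most transcripts of photosynthesis. Together, 71 light-harvesting genes reached 425, 195 and 65.1 CPM in low nitrogen replicates 1 to 3, against 61.4, 34.3 and 962 CPM in control replicates 1 to 3. Genes with symbols of nicotine synthesis (PMT2 and QPT) were summed over 4 genes. The sum was 898, 1028 and 899 CPM in low nitrogen, against 733, 984 and 1185 CPM in control. Most of it was 1 QPT gene, Nitab4.5_0000742g0010. That gene was at 744, 884 and 780 CPM in low nitrogen, against 651, 888 and 1025 CPM in control. Whether the sum follows root tissue was not tested. In whole samples, fewer cells of a type and less RNA per cell cannot be told apart.

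LBD39 (Nitab4.5_0005276g0010), with the locus code At4g37540, had 0 counts in each of the 6 libraries. A count of 0 allows up to 3 counts per library, or 0.192 to 0.230 CPM, a limit that covers counting error only. With no row named LBD37 or LBD38, the nitrogen-induced LBD repressors could not be compared between the feeding levels from these symbols.

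Of the 27 NIN-like genes, 26 had enough counts to be tested. Their summed level was 580, 781 and 565 CPM in low nitrogen replicates 1 to 3, against 501, 733 and 412 CPM in control replicates 1 to 3. The sum averaged 642 ± 121 CPM in low nitrogen and 549 ± 166 CPM in control (SD, n = 3 each), so the groups overlapped and differed by less than their spread. No NIN-like gene passed edgeR's quasi-likelihood test after Benjamini-Hochberg adjustment over the 38482 genes tested, where the calls were 0 genes in all, or 0% of those tested. DESeq2 called 588 genes, 1.62% of those it gave an adjusted p, and 0 of them were NIN-like. At an edgeR unadjusted p under 0.05, 6 NIN-like genes were higher in low nitrogen, against 6.10% of all genes tested, and 0 were lower, against 5.66%. The fold change was above 0 for 19 and below 0 for 7 of the 26, with a median log2 value of 0.20, against 0.00 over all genes tested.

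**Figure D1:**
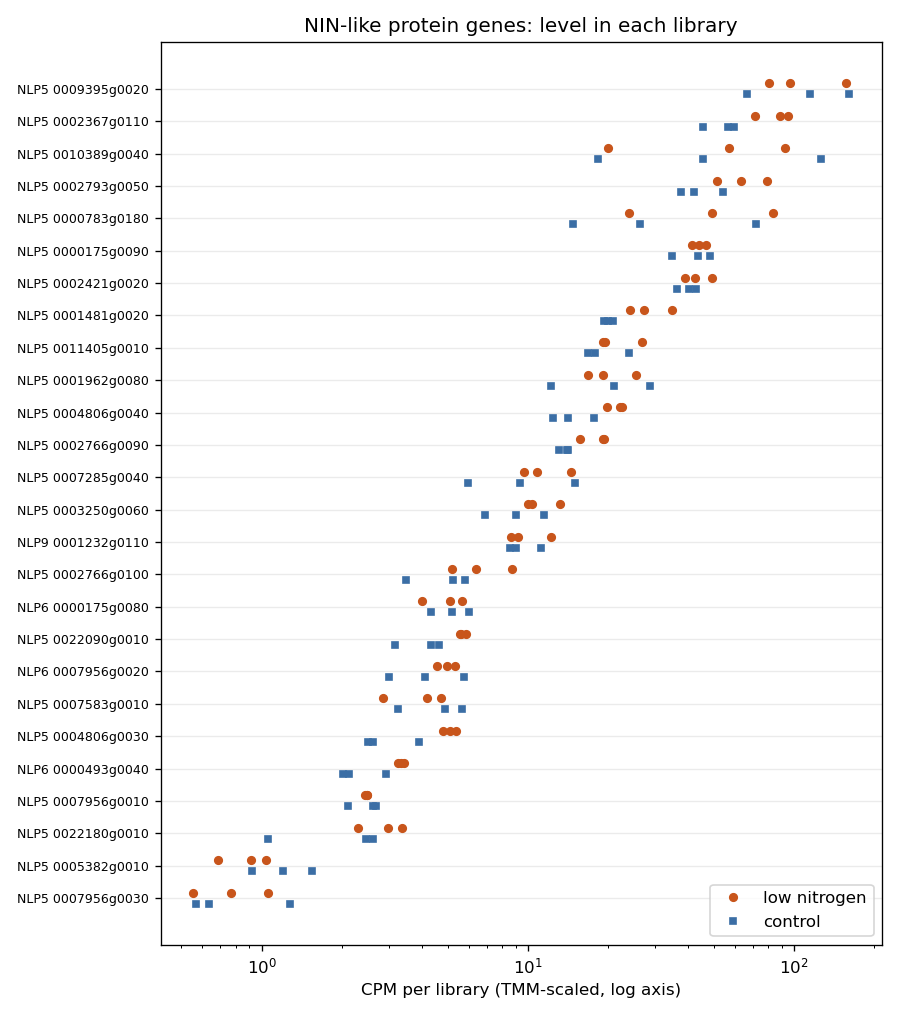
CPM of the 26 tested NIN-like genes in each library on a log axis, low nitrogen (circles, 3 per gene) above control (squares, 3 per gene), ordered by mean level. The groups are apart in 7 genes, such as Nitab4.5_0002367g0110, and widely mixed in genes such as Nitab4.5_0010389g0040, which ran from 18.4 to 126 CPM.

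The 6 genes with an unadjusted p under 0.05 were all NLP5 copies, and they were 1.32-fold to 1.68-fold higher in low nitrogen. Nitab4.5_0002367g0110 was at 95.01, 88.7 and 71.5 CPM in low nitrogen replicates 1 to 3, against 45.5, 56.3 and 59.3 CPM in control replicates 1 to 3. All low nitrogen libraries lay above all controls. Its log2 fold change was 0.66 (SE 0.17, 95% interval 0.27 to 1.06), with an edgeR adjusted p of 0.345, and its DESeq2 adjusted p of 0.0514 was the smallest of the NIN-like genes. This was also the copy whose edgeR p was the smallest, 0.00494 before adjustment.

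Neighbouring NLP5 genes Nitab4.5_0004806g0030 and Nitab4.5_0004806g0040 carried consecutive identifiers on 1 scaffold. The first was at 5.11, 5.37 and 4.79 CPM in low nitrogen and at 2.52, 2.63 and 3.89 CPM in control. The second was at 22.1, 22.5 and 19.8 CPM in low nitrogen and at 14.2, 17.7 and 12.4 CPM in control. In both, every low nitrogen library was above every control, with log2 fold changes of 0.75 (SE 0.25) and 0.54 (SE 0.17) and edgeR adjusted p of 0.385 and 0.369. Counted as 1 gene, the pair had a log2 fold change of 0.58 (SE 0.14, 95% interval 0.25 to 0.91; edgeR adjusted p 0.339). Whether such neighbours are separate genes or pieces of 1 gene was not tested.

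Nitab4.5_0001481g0020 was at 34.9, 27.4 and 24.2 CPM in low nitrogen, against 19.3, 20.0 and 20.8 CPM in control (log2 fold change 0.52, SE 0.16, edgeR adjusted p 0.370). Nitab4.5_0002766g0090 was at 19.2, 15.7 and 19.4 CPM in low nitrogen, against 13.1, 14.1 and 14.0 CPM in control (log2 fold change 0.40, SE 0.14, edgeR adjusted p 0.390). Neither gene overlapped between the groups, and the controls lay within a narrow band. The neighbour of the second, Nitab4.5_0002766g0100, was at 8.75, 5.18 and 6.38 CPM in low nitrogen and 3.49, 5.25 and 5.81 CPM in control, with overlap. Counted as 1 gene, that pair had a log2 fold change of 0.42 (SE 0.16, edgeR adjusted p 0.397).

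Nitab4.5_0002793g0050 was at 63.0, 78.9 and 51.2 CPM in low nitrogen, against 37.7, 54.2 and 42.2 CPM in control, with overlap between low nitrogen replicate 3 and control replicate 2 (log2 fold change 0.53, SE 0.21, edgeR adjusted p 0.411). Groups that did not overlap were found in 7 of the 26 NIN-like genes, each higher in low nitrogen. Over all genes tested, 9.66% did not overlap and were higher, and 8.54% did not overlap and were lower. The other 2 of the 7 had an unadjusted p above 0.05. Nitab4.5_0022090g0010, an NLP5 gene, was at 5.88, 5.56 and 5.62 CPM in low nitrogen and 3.17, 4.65 and 4.32 CPM in control (edgeR adjusted p 0.438). Nitab4.5_0000493g0040, an NLP6 gene, was at 3.43, 3.25 and 3.33 CPM in low nitrogen and 2.92, 2.03 and 2.12 CPM in control (edgeR adjusted p 0.479).

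The 6 genes did not hold equally well when libraries were left out. The unadjusted edgeR p stayed under 0.05 in all 6 single omissions for Nitab4.5_0002367g0110, Nitab4.5_0001481g0020 and Nitab4.5_0004806g0040. It did so in 3 omissions for Nitab4.5_0004806g0030 and in 2 each for Nitab4.5_0002766g0090 and Nitab4.5_0002793g0050. The count of 6 was 3 without control replicate 1. Without the libraries with the highest light-harvesting sums of their groups, low nitrogen replicate 1 and control replicate 3, it was 2. Those 2 were Nitab4.5_0002367g0110 (log2 fold change 0.64) and Nitab4.5_0004806g0030 (0.97).

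**Figure D2:**
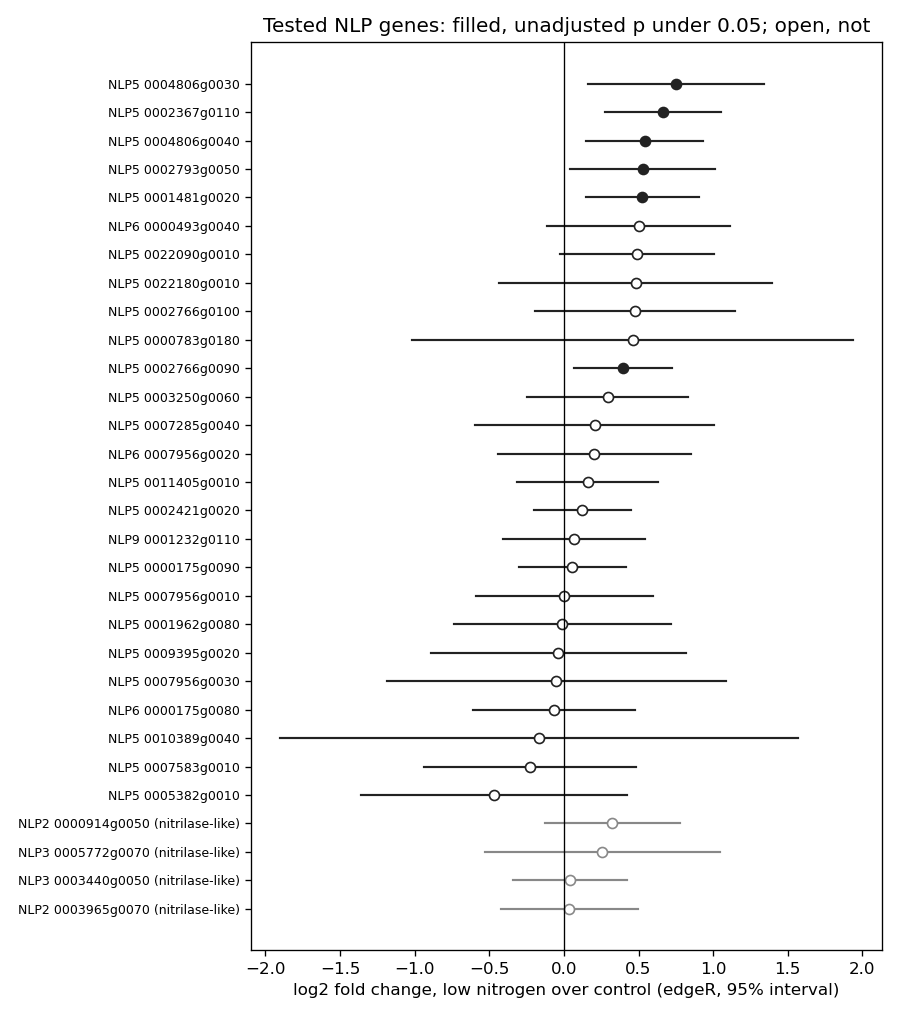
edgeR log2 fold change of low nitrogen over control with its 95% interval for the 30 tested genes named NLP, NIN-like above and nitrilase-like below. Filled points, 6 NLP5 copies with an unadjusted p under 0.05, lie between 0.40 and 0.75, and the widest interval, of Nitab4.5_0010389g0040, runs from -1.90 to 1.57.

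Other NLP5 copies varied more between libraries of 1 group than between the groups. Among the 14 NIN-like genes with a mean of at least 10 CPM, the 5 with the largest ratio of highest to lowest library were described together after their values were seen. Nitab4.5_0010389g0040 was at 20.0, 92.4 and 56.9 CPM in low nitrogen replicates 1 to 3, against 45.4, 126 and 18.4 CPM in control replicates 1 to 3, a ratio of 6.86 between the extremes. Nitab4.5_0000783g0180 was at 23.9, 83.1 and 49.0 CPM in low nitrogen, against 26.5, 72.2 and 14.8 CPM in control, a ratio of 5.61. In both genes replicate 2 was the highest library of each group, and low nitrogen replicate 1 and control replicate 3 were the lowest.

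Nitab4.5_0009395g0020, the NIN-like gene with the most counts, was at 96.7, 156 and 80.3 CPM in low nitrogen, against 114, 161 and 66.5 CPM in control. Nitab4.5_0001962g0080 was at 19.2, 25.4 and 16.9 CPM in low nitrogen, against 21.0, 28.7 and 12.2 CPM in control. Nitab4.5_0007285g0040 was at 9.65, 14.5 and 10.8 CPM in low nitrogen, against 9.34, 15.1 and 5.95 CPM in control. All 5 genes were highest in replicate 2 of both groups and lowest among the controls in control replicate 3, and their groups overlapped.

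For these genes the fold change was poorly fixed. The log2 fold change of Nitab4.5_0010389g0040 was -0.17 with a 95% interval of -1.90 to 1.57, that of Nitab4.5_0000783g0180 was 0.46 with an interval of -1.02 to 1.94, and that of Nitab4.5_0009395g0020 was -0.04 with an interval of -0.89 to 0.82. Changes of 1 log2 unit in either direction lie inside the first and second of these intervals. Leaving out single libraries moved the log2 value of Nitab4.5_0010389g0040 from -0.72 to 0.83, the higher value being that without control replicate 2, and that of Nitab4.5_0000783g0180 from -0.05 without low nitrogen replicate 2 to 1.34 without control replicate 2.

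Replicate 2 was the highest library in both groups for 9 of the 26 tested NIN-like genes, or 34.6%, against 11.6% of all genes tested. The titles give the groups the same replicate numbers. Over all genes, deviations of same-numbered libraries from their group means had correlations of -0.32, 0.10 and -0.27. With 3 libraries per group, these values cannot settle whether the numbers pair the samples. Low nitrogen replicate 1 and control replicate 3 were the lowest of their groups for 6 of the 26 (23.1%, against 16.5% of all genes) and the highest for 4 (15.4%, against 17.4%). These libraries had the highest light-harvesting sums of their groups, 425 and 962 CPM. The part of photosynthetic tissue in the NLP5 levels was not tested.

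**Figure D3:**
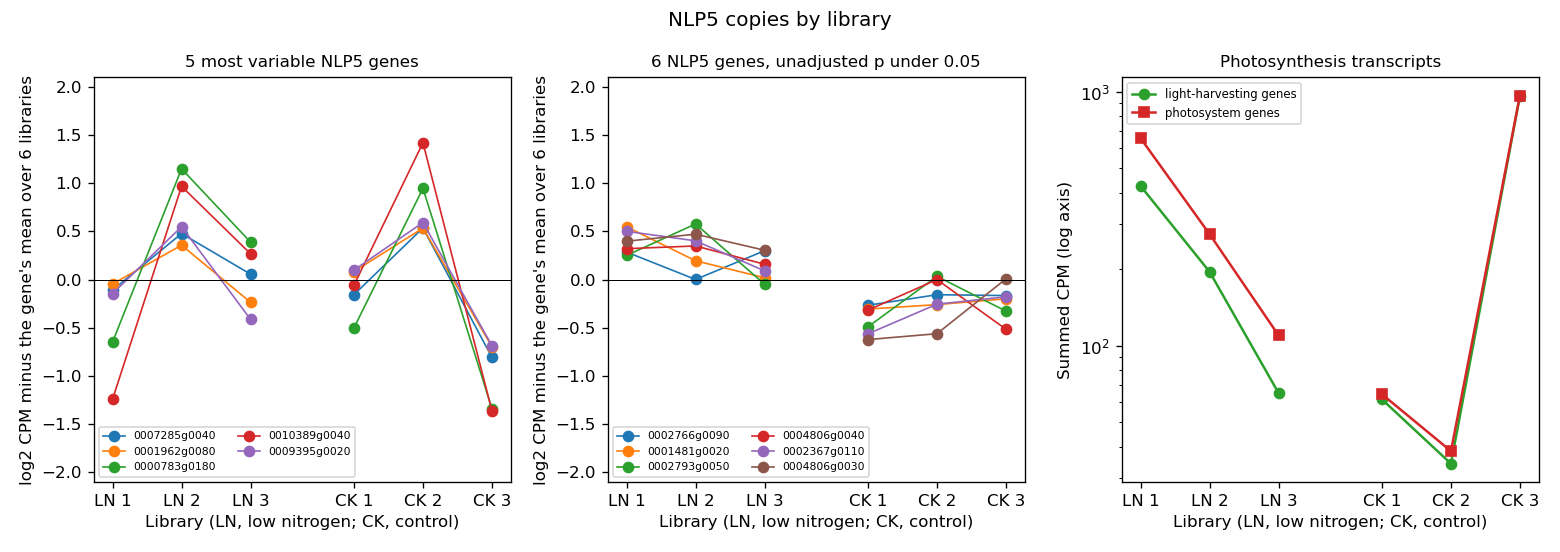
log2 CPM of single NLP5 genes relative to their own mean over 6 libraries, for the 5 most variable genes (left) and the 6 genes with an unadjusted p under 0.05 (middle), with the summed CPM of light-harvesting and photosystem genes on a log axis (right). The variable genes peak in replicate 2 of each group and are low in control replicate 3, where the light-harvesting sum was 962 CPM. The other genes sit higher in low nitrogen. Both sets were picked by these same values, so the contrast between them only describes the choice.

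The copies did not move as a block. Pearson's r of log2 CPM across the 6 libraries was taken over the 325 pairs among the 26 tested NIN-like genes. It had a median of 0.28 and ran from -0.96 to 0.98. These values describe these libraries and were not set beside pairs of other genes. The closest pair was Nitab4.5_0001962g0080 and Nitab4.5_0009395g0020 (r = 0.98), both among the variable genes. Among the higher genes, Nitab4.5_0001481g0020 and Nitab4.5_0002367g0110 had r = 0.94. Both sets were picked by their values in these libraries and group means were not removed. High r within a set therefore follows in part from the choice. The division of NIN-like counts between the copies differed between libraries. Nitab4.5_0010389g0040 held 3.45%, 11.8% and 10.1% of all NIN-like counts in low nitrogen replicates 1 to 3, against 9.06%, 17.2% and 4.47% in control replicates 1 to 3. Nitab4.5_0002367g0110 held 16.4%, 11.4% and 12.7% in low nitrogen, against 9.08%, 7.68% and 14.4% in control. Its shares overlapped between the groups, although its CPM did not.

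The remaining 4 NLP5 genes with a mean of at least 10 CPM differed in how far their libraries spread. Nitab4.5_0000175g0090 was at 41.2, 43.8 and 46.7 CPM in low nitrogen, against 48.2, 43.7 and 34.8 CPM in control, and its 95% interval of log2 fold change ran from -0.30 to 0.41. Nitab4.5_0002421g0020 was at 49.1, 42.3 and 38.9 CPM in low nitrogen, against 40.4, 42.7 and 36.5 CPM in control, with an interval of -0.20 to 0.45. Nitab4.5_0011405g0010 averaged 21.9 ± 4.33 CPM in low nitrogen and 19.6 ± 3.92 CPM in control, and Nitab4.5_0003250g0060 averaged 11.2 ± 1.76 CPM in low nitrogen and 9.15 ± 2.32 CPM in control (SD, n = 3 each). The ratio of the highest to the lowest library was 1.39 for Nitab4.5_0000175g0090, 1.35 for Nitab4.5_0002421g0020, 1.59 for Nitab4.5_0011405g0010 and 1.92 for Nitab4.5_0003250g0060. The median ratio over all genes tested was 1.80, so the last of these genes lay above it.

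The rarest NLP5 genes gave little information. Nitab4.5_0022180g0010 averaged 2.88 ± 0.531 CPM in low nitrogen and 2.05 ± 0.867 CPM in control, and Nitab4.5_0007583g0010 averaged 3.92 ± 0.951 CPM in low nitrogen and 4.61 ± 1.24 CPM in control (SD, n = 3 each). Nitab4.5_0005382g0010 had the lowest fold change of the family, a log2 value of -0.47 with a 95% interval of -1.36 to 0.42, from 39 counts over the low nitrogen libraries and 48 over the controls. A run of 4 consecutive identifiers, Nitab4.5_0007956g0010 to Nitab4.5_0007956g0040, held 3 NLP5 genes and 1 NLP6 gene. The last of them, with 20 counts over the low nitrogen libraries and 13 over the controls, was the NIN-like gene not tested. Counted as 1 gene, the run was at 8.89, 8.99 and 8.12 CPM in low nitrogen, against 6.33, 10.1 and 7.43 CPM in control (log2 fold change 0.13, SE 0.21, edgeR adjusted p 0.825).

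The NLP6 and NLP9 genes are of interest because in Arabidopsis NLP6, with its close relative NLP7, is a main activator of the nitrate response. Nitab4.5_0007956g0020, an NLP6 gene in that run, was at 5.32, 4.56 and 4.99 CPM in low nitrogen, against 3.005, 5.78 and 4.11 CPM in control. Nitab4.5_0000175g0080, an NLP6 gene next to an NLP5 gene, was at 5.67, 5.12 and 4.02 CPM in low nitrogen, against 5.20, 6.002 and 4.32 CPM in control. Both overlapped between the groups. NLP9 (Nitab4.5_0001232g0110) was at 12.2, 9.18 and 8.67 CPM in low nitrogen, against 9.01, 8.55 and 11.2 CPM in control, with a log2 fold change of 0.06 (95% interval -0.41 to 0.54, edgeR adjusted p 0.913). The highest NLP9 libraries of the groups, low nitrogen replicate 1 and control replicate 3, were those with the most photosynthesis transcripts.

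Sums over the copies of a symbol do not depend on how reads were divided between those copies. The 23 NLP5 genes together had a log2 fold change of 0.22 (SE 0.25, 95% interval -0.37 to 0.80), the 3 NLP6 genes 0.15 (SE 0.16, interval -0.24 to 0.53) and NLP9 0.05 (SE 0.20). Their edgeR adjusted p over 16100 symbols and unnamed genes were 0.718, 0.712 and 0.930, in a fit that called 0 symbols. The NLP5 value depended on single libraries. The log2 ratio of mean summed NLP5 CPM, 0.23 with all libraries, became 0.055 when control replicate 3 was left out and 0.058 when low nitrogen replicate 2 was. Leaving out control replicate 2 gave 0.51.

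The nitrilase-like genes showed small differences. NLP2 in Arabidopsis is an amidase that repairs deaminated glutathione, and NLP3 is an omega-amidase. The NLP2 gene Nitab4.5_0000914g0050 was at 5.46, 5.496 and 5.06 CPM in low nitrogen, against 3.90, 4.20 and 4.67 CPM in control, without overlap (log2 fold change 0.33, SE 0.19, edgeR adjusted p 0.525). The other NLP2 gene, Nitab4.5_0003965g0070, averaged 6.92 ± 0.908 CPM in low nitrogen and 6.74 ± 0.868 CPM in control (SD, n = 3 each). The NLP3 gene Nitab4.5_0003440g0050 was the steadiest of all tested genes named NLP, at 7.35, 6.99 and 6.94 CPM in low nitrogen and 6.74, 7.43 and 6.51 CPM in control. Nitab4.5_0005772g0070, also NLP3, was at 12.9, 9.31 and 6.24 CPM in low nitrogen, against 5.12, 9.60 and 9.06 CPM in control. Of the other 3 NLP3 genes, Nitab4.5_0007033g0020 had 5 counts over the low nitrogen libraries and 3 over the controls, and Nitab4.5_0000293g0070 and Nitab4.5_0008100g0010 had 0 counts in every library.

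The genes most like the NIN-like gene with the most counts, Nitab4.5_0009395g0020, were sought among 22413 named genes with a mean of at least 5 CPM, by Pearson's r of log2 CPM over the 6 libraries. The 5 nearest were GA2 (Nitab4.5_0005724g0010), an ent-kaurene synthase of gibberellin synthesis, R1A (Nitab4.5_0009471g0020) and R1A-6 (Nitab4.5_0000198g0140), named after late blight resistance proteins, VAL1 (Nitab4.5_0002759g0100), a B3 domain repressor, and a gene with the code At3g61750 (Nitab4.5_0001015g0050). Their r was 0.99 in each case. GA2 was at 4.34, 8.43 and 3.75 CPM in low nitrogen and 5.77, 7.95 and 3.12 CPM in control, which has the same peaks in replicate 2. With 6 libraries and this many candidates, values this high describe the ranking only.

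Genes of nitrate uptake, nitrate reduction, calcium signalling and related regulation were described from lists of symbols. Of 26 tested nitrate carriers (NPF6 and NRT2), 4 were higher and 2 lower at an edgeR unadjusted p under 0.05. Over all genes tested, 6.10% were higher and 5.66% lower at that threshold. The median log2 fold change of the carriers was 0.14. The one with the smallest p, NRT2.6 (Nitab4.5_0000567g0010), a high-affinity carrier, was at 3.78, 3.06 and 1.18 CPM in low nitrogen, against 0.0812, 0.00 and 0.142 CPM in control (edgeR adjusted p 0.255, DESeq2 adjusted p 0.000327). NPF6.2 (Nitab4.5_0000312g0370), with the most counts, averaged 234 ± 89.1 CPM in low nitrogen and 361 ± 160 CPM in control (SD, n = 3 each). Of 2 tested nitrate reductase genes, targets of NLP proteins in Arabidopsis, both had fold changes below 0. The one with more counts, NIA (Nitab4.5_0002857g0010), was at 185, 413 and 200 CPM in low nitrogen, against 491, 472 and 323 CPM in control (log2 fold change -0.69, SE 0.35, edgeR adjusted p 0.471). It was highest within low nitrogen in replicate 2 and lowest among the controls in control replicate 3. Its highest control was replicate 1, unlike the variable NLP5 genes, which peaked in replicate 2 of both groups. Whether NIA follows any NLP gene was not tested.

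Calcium sensors and kinases (CBL1, CBL9, CIPK8 and CPK30) had 21 tested genes. By the same unadjusted threshold 4 were higher and 3 were lower in low nitrogen, against 6.10% and 5.66% of all genes tested. CBL1 (Nitab4.5_0010146g0020), a calcium sensor, was at 131, 131 and 94.8 CPM in low nitrogen, against 45.3, 50.4 and 82.4 CPM in control, without overlap (log2 fold change 1.00, SE 0.26, edgeR adjusted p 0.347, DESeq2 adjusted p 0.032). CBL9 (Nitab4.5_0003335g0020), a related sensor, was at 7.00, 6.87 and 6.31 CPM in low nitrogen, against 16.5, 13.1 and 9.13 CPM in control (log2 fold change -0.94, SE 0.24, edgeR adjusted p 0.344). Control replicate 3 was the control nearest to low nitrogen in both.

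Other nitrate-response regulators (EFM and TCP20) had 11 tested genes. At an edgeR unadjusted p under 0.05, 0 were higher and 1 was lower, against 6.10% and 5.66% of all genes tested. The lower gene was EFM (Nitab4.5_0000672g0080), a MYB-type factor. It was at 30.2, 29.0 and 24.97 CPM in low nitrogen, against 36.5, 31.7 and 37.6 CPM in control (edgeR adjusted p 0.416). EFM Nitab4.5_0005194g0010, the one with the most counts, averaged 32.2 ± 14.2 CPM in low nitrogen and 37.8 ± 7.36 CPM in control (SD, n = 3 each).

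Of 43 tested genes with other LOB domain symbols, 2 passed the same unadjusted threshold as higher and 6 as lower in low nitrogen. Over all genes tested, 6.10% were higher and 5.66% lower. The median log2 fold change of the list was -0.14. LBD40 (Nitab4.5_0000791g0130), which belongs to class II of the LOB domain family, as do LBD37 to LBD39, was at 7.84, 5.996 and 5.41 CPM in low nitrogen, against 33.5, 30.9 and 8.28 CPM in control (log2 fold change -1.91, SE 0.49, edgeR adjusted p 0.347, DESeq2 adjusted p 0.00931). The gene of the list with the most counts, AS2 (Nitab4.5_0008156g0030), was at 242, 97.2 and 115 CPM in low nitrogen, against 44.4, 10.7 and 47.3 CPM in control, without overlap (log2 fold change 2.15, SE 0.59, edgeR adjusted p 0.357, DESeq2 adjusted p 0.00836). Its row carries the symbol with no locus code, so that its place among LOB domain genes rests on the symbol alone. Whether it is a LOB domain gene or another gene with the same symbol was not tested. Without AS2, 1 of 42 was higher and 6 were lower, and the median was -0.16. With AS2 the list summed to 488 ± 79.7 CPM in low nitrogen and 648 ± 203 CPM in control, and without it to 336 ± 33.7 CPM in low nitrogen and 614 ± 207 CPM in control (SD, n = 3 each).

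Anthocyanin genes, which LBD37 to LBD39 repress in Arabidopsis, were taken by symbol and had 18 tested genes, most of them named DFR. Symbols name the nearest annotated protein, so these genes need not all act in anthocyanin synthesis. By the same unadjusted threshold 4 were higher and 1 was lower, against 6.10% and 5.66% of all genes tested. The median log2 fold change of the list was 0.04. DFR (Nitab4.5_0000222g0300), named after dihydroflavonol reductase, was at 7.00, 3.44 and 1.25 CPM in low nitrogen, against 0.487, 0.975 and 1.13 CPM in control (edgeR adjusted p 0.367). The DFR gene with the most counts, Nitab4.5_0010897g0020, averaged 378 ± 69.3 CPM in low nitrogen and 445 ± 30.2 CPM in control (SD, n = 3 each). RKD genes, which share the RWP-RK domain with NLP proteins and are known from egg cells, had 1 tested gene of 7. That was RKD5 (Nitab4.5_0011694g0020), at 0.770, 0.874 and 0.277 CPM in low nitrogen and 0.244, 2.03 and 0.212 CPM in control. In every one of these lists 0 genes passed the adjusted edgeR threshold, which 0 of the 38482 genes tested passed. DESeq2 called 4 nitrate carriers higher and 1 lower, and 1 calcium signalling gene higher. In the LBD list it called 1 gene higher, AS2, and 2 lower. It called 0 genes in the other lists named here, against 1.62% of all genes it gave an adjusted p.

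**Figure D4:**
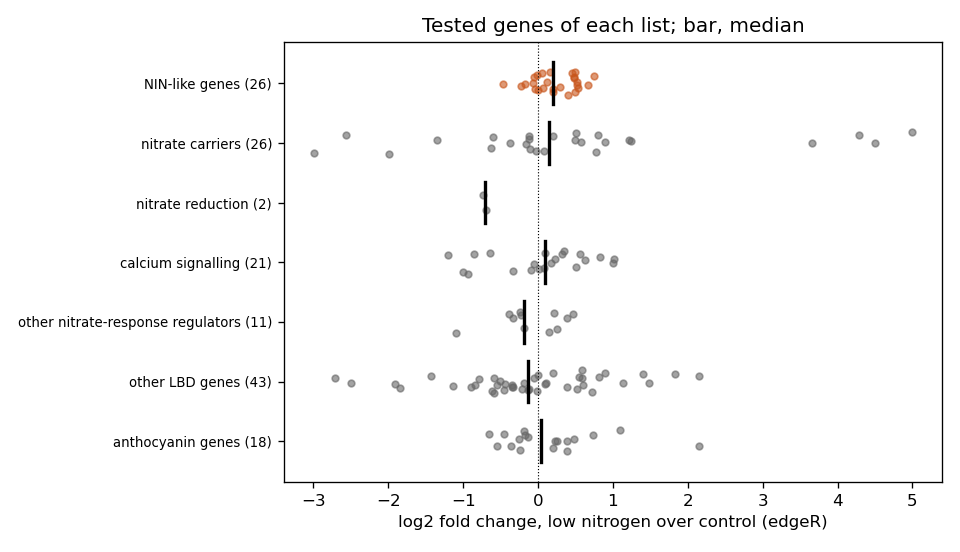
edgeR log2 fold change, low nitrogen over control, of each tested NIN-like gene and of each tested gene of 6 pathway lists (points, with the number of genes in brackets) and the median of each list (bar). NIN-like genes lie between -0.47 and 0.75 around a median of 0.20, a narrower span than nitrate carriers, which run from -2.99 to 4.995. The carrier at 4.995, NRT2.6 (Nitab4.5_0000567g0010), had only 3 counts over the control libraries.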

How the data were processed

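Polyadenylated RNA of tobacco seedlings was sequenced in 3 low nitrogen and 3 control libraries. The deposited values are raw counts for each Nitab4.5 gene, with symbols. Alignment software listed in the submitters' processing notes was HISAT2. The version, the counter, the strand setting and the handling of multi-mapping reads are not given in the labels or headers. No identifier matched the RefSeq gene table (0 matches), so no coordinates or sequences are printed.

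Genes passing filterByExpr were scaled by TMM and tested by the quasi-likelihood F test of edgeR 4.0.16 in R 4.3.3, and p-values were adjusted (Benjamini-Hochberg) over the 38482 genes, with calls at 0.05. The SE is the log2 fold change over the root of F. Likeness used log2 CPM with a prior count of 2. DESeq2 1.42.0 and limma-voom (limma 3.58.1) served as alternatives. The procedure was also run on simulated data with changes larger than those of the NIN-like genes. That run does not show how well changes of their size are found. Chi-square per degree of freedom between replicates was 13.5 or more, above counting noise, which does not show whether libraries came from separate plants.

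Members, lists and alternatives were chosen with earlier results of these data known. Named genes were all members, the 5 genes most like the NIN-like gene with the most counts, and from each pathway list the gene with the smallest p and that with the highest mean CPM. Library sizes were first taken over all genes and then, after that fit had been seen, over the genes kept. AS2 was dropped from the LBD list after its values were seen, and was then put back as the list had named it. Homonyms (BT1, PAP1, PAP2, chitinases under CHI, and non-photosynthetic genes under CAB, CB5 and PSA) were left out, and RKD genes added, once the symbols had been seen.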

Additional observations from a re-analysis of the deposited data

How the results depend on the processing

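No NIN-like or nitrilase-like gene passed the adjusted threshold under any alternative run with each gene tested by itself, and 430 of 470 single-gene values kept their direction. The count of genes past the threshold, 0 with edgeR (4527 at an unadjusted p under 0.05), was 588 with DESeq2, 0 with limma-voom (4472 unadjusted), 0 with library sizes over all genes (4544 unadjusted, NIN-like count 6), and 0 to 11 when single libraries were left out, the 11 without control replicate 3. The 6 NIN-like genes higher at an unadjusted p under 0.05 were 3 to 6 when single libraries were left out and 2 without control replicate 3 and low nitrogen replicate 1 together. With the replicate number as a block the count of genes past the threshold was 0 (3056 unadjusted) and the NIN-like count 5. Deviations of same-numbered libraries from their group means had correlations of -0.32, 0.10 and -0.27. With 3 libraries per group, these values cannot settle whether the numbers pair the samples.

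The other 40 values changed sign, in 16 genes whose log2 fold changes were at most 0.46 in size. For Nitab4.5_0007956g0010 (0.0018) the value was -0.0097 with RLE factors, -0.0059 with upper-quartile factors, -0.0072 with no filter on low counts, -0.0055 with a filter of 1 CPM in 3 libraries, -0.0058 with library sizes over all genes and -0.011 with DESeq2. For Nitab4.5_0001962g0080 it was 0.061 with limma-voom and 0.047 with the replicate block. Without control replicate 3 and low nitrogen replicate 1 together it was -0.033 for Nitab4.5_0000175g0090, -0.036 for Nitab4.5_0003440g0050 and -0.045 for Nitab4.5_0002421g0020. Leaving out single libraries gave -0.11 to 0.055 for Nitab4.5_0007956g0010, -0.29 to 0.31 for Nitab4.5_0001962g0080, -0.043 to 0.15 for Nitab4.5_0003965g0070 and -0.0015 to 0.48 for Nitab4.5_0007956g0020. It gave -0.19 to 0.061 for Nitab4.5_0000175g0080, -0.11 to 0.18 for Nitab4.5_0001232g0110, -0.32 to 0.40 for Nitab4.5_0007956g0030 and -0.36 to 0.30 for Nitab4.5_0009395g0020. The ranges were -0.72 to 0.83 for Nitab4.5_0010389g0040, -0.076 to 0.16 for Nitab4.5_0000175g0090, -0.0090 to 0.10 for Nitab4.5_0003440g0050 and -0.079 to 0.61 for Nitab4.5_0007285g0040. They were -0.041 to 0.49 for Nitab4.5_0005772g0070, -0.050 to 1.34 for Nitab4.5_0000783g0180 and -0.016 to 0.34 for Nitab4.5_0011405g0010. The cause of these changes was not tested. The log2 ratio of summed NLP5 CPM, 0.23, was 0.30 by raw library totals and 0.055 to 0.51 when single libraries were left out. Merging neighbouring members, library sizes over all genes and the LBD list without AS2 were chosen after seeing the data.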
